A study of Homo sapiens with 9 samples.

Results

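The genes described here are the 48 protein-coding genes that carry the WNT signal at the cell surface or hold it back. They are the 19 WNT ligands, the 10 Frizzled (FZD) receptors, the co-receptors LRP5 and LRP6, the receptor kinases ROR1, ROR2 and RYK, the secreted antagonists SFRP1 to SFRP5 and DKK1 to DKK4, the intracellular inhibitors AXIN1, AXIN2, NKD1 and NKD2, and the receptor-removing ligases RNF43 and ZNRF3. They were taken by a rule on gene symbols, set with earlier results of these data known. All 48 have a row among the 60675 genes counted. RNA was sequenced in bulk from 3 single-cell-derived subclones of SK-MEL-5, a human melanoma cell line with a BRAF mutation that all the clones share. The groups are SC10, SC07 and SC01, each untreated and each represented by 3 libraries. Limiting dilution of the parental line without drug gave the clones. They were chosen by their initial response to PLX-4720, a BRAF inhibitor. Each group is therefore 1 clone, and a difference between groups is a difference between those clones. The labels give neither the response of each clone nor the origin of its replicate libraries. The spread behind every p-value is thus only that between libraries, and it may be technical.

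WNT proteins are secreted, lipid-modified ligands that bind Frizzled receptors. Together with LRP5 or LRP6 they stabilise β-catenin, which then acts with TCF and LEF factors on target genes; through ROR1, ROR2 or RYK they signal without β-catenin to cell polarity and movement. In the melanocyte lineage the β-catenin branch is known for its link to MITF and pigment cell fate, and WNT5A, the best-known ligand of the other branch, for its link to melanoma cell motility.

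Total counts per library ran from 30224066 to 39454087. Levels are given as CPM, the counts scaled to a common library size, after TMM scaling of the library sizes, and 3 counts in a library corresponded to 0.0773 to 0.0948 CPM. Replicate libraries varied beyond counting noise (chi-square of 2.53 to 11.3 for each degree of freedom within a clone and 59.4 to 191 across clones), and SC10 replicate 3 stood furthest from its fellows, at 10.2 and 11.3. The melanocyte lineage markers fixed for this work summed to 15283 to 15495 CPM in SC10, 24452 to 24962 CPM in SC07 and 10875 to 11532 CPM in SC01, with 7 of 8 genes tested. PMEL and DCT make up most of that sum, while TYRP1 averaged 702, 1212 and 2394 CPM and S100B 133, 105 and 150 CPM in SC10, SC07 and SC01, both highest in SC01. SOX10, a defining factor of the lineage, had 0 counts in all 9 libraries. MITF, of the same list, averaged 550, 499 and 450 CPM in SC10, SC07 and SC01. POLR2F shares 2.4% of the exon bases of SOX10. Whether the 0 stands for absent SOX10 RNA or for how reads were counted was not tested. It is therefore not read as a lack of SOX10 in these clones. Fibroblast markers, 6 of 8 tested, summed to 364 to 401 CPM in SC10, 437 to 499 CPM in SC07 and 162 to 169 CPM in SC01. LUM made up most of this, at 350, 462 and 131 CPM on average, whereas COL1A1 averaged 1.15, 1.20 and 2.04 CPM, FBLN1 28.9, 9.59 and 30.5 CPM, and COL1A2 and COL3A1 under 0.07 CPM. Keratinocyte markers, 6 of 8 tested and with KRT1 at 0, gave 41.4 to 46.4, 39.7 to 41.4 and 26.3 to 29.3 CPM in SC10, SC07 and SC01. Endothelial markers, 2 of 4 tested, gave 8.34 to 8.92, 14.3 to 15.5 and 23.0 to 24.3 CPM in the same order of clones; KDR averaged 3.56, 5.41 and 20.8 CPM and VWF 4.91, 9.37 and 2.82 CPM. Immune markers, 1 of 4 tested, gave 0.591 to 1.09, 3.07 to 3.69 and 0.239 to 0.494 CPM. These sums differ between the clones as many WNT genes do, and their part in the results was not tested.

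Of the 48 genes, 33 had enough counts to be tested and 28 of these passed an adjusted p of 0.05 in the test over the 3 clones together, as did 76.3% of all 18009 tested genes. Against SC01, SC07 had 7 genes higher and 15 lower and SC10 had 13 higher and 13 lower. Between SC10 and SC07, 13 were higher in SC10 and 8 lower. These counts include FZD10 and WNT9A, which had enough counts for testing in 1 clone only and so had to differ. DKK1 reached the level for testing in every SC01 library, but otherwise only in SC07 replicate 1. It was thus tested through SC01, and its calls against SC01 lend no support. ROR2 and DKK2 reached that level in no SC01 library, and WNT5B in no SC07 library. Without SC10 replicate 3, the library that stood furthest from its fellows, 13 were higher and 12 lower in SC10 than in SC01, and 13 higher and 7 lower in SC10 than in SC07. The share of all tested genes called was 62% in SC07 against SC01 (31.5% higher, 30.5% lower), 65.9% in SC10 against SC01 (33.5% higher, 32.4% lower) and 47.9% in SC10 against SC07 (24.8% higher, 23% lower). The numbers of WNT genes called, 22, 26 and 21 of 33, are 66.7%, 78.8% and 63.6% of those tested, and are read against that high background only as a description. The median size of the log2 change over the tested WNT genes was 0.58 in SC07 against SC01, 0.94 in SC10 against SC01 and 0.61 in SC10 against SC07, where all tested genes had 0.39, 0.43 and 0.26. These WNT medians include FZD10, WNT9A and several other genes under 1 CPM, and the difference from all genes was not tested. With at least a 2-fold change, no overlap of libraries and a mean of at least 1 CPM in the higher clone as further conditions, 4 WNT genes were higher and 7 lower in SC10 than in SC01, where 13.8% of all tested genes met them (8.38% higher, 5.46% lower). In SC07 against SC01, 4 were higher and 6 lower (12.5% of all, 6.65% higher and 5.84% lower), and in SC10 against SC07, 3 were higher and 1 lower (5.45% of all, 3.84% higher and 1.62% lower). These make up 14 genes.

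With scaling by library totals alone the median log2 change of all genes was -0.12 in both comparisons with SC01, against -0.01 with TMM, and the split of all genes called in SC07 against SC01 became 4666 higher and 6841 lower, against 5675 and 5487 with TMM. Log2 changes below are with TMM.

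Both comparisons with SC01 share the SC01 libraries. WNT5A, WNT5B, WNT4, FZD1, FZD7, FZD10, ROR1, LRP6, SFRP1 and DKK1 were lower in both SC10 and SC07 than in SC01, which makes 10 of the 33 tested genes, where 22.3% of all tested genes did so. FZD10 and DKK1 among them were tested only because of their counts in SC01. WNT10A, FZD8, ROR2, DKK2, NKD2 and RNF43, 6 genes, were higher in both, as were 24.2% of all tested genes. WNT10B, DKK3 and LRP5, 3 genes, were higher in SC10 and lower in SC07 than in SC01, and 3.49% of all tested genes were called in opposite directions there. AXIN1, FZD2, FZD3 and WNT8B passed the threshold in no pair of clones in the TMM-scaled edgeR fit of all libraries; alternatives that gave some of them a call stand with each gene. Because RNA came from whole cultures, fewer cells with a transcript and less of it per cell cannot be told apart in any of these results.

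**Figure D1:**
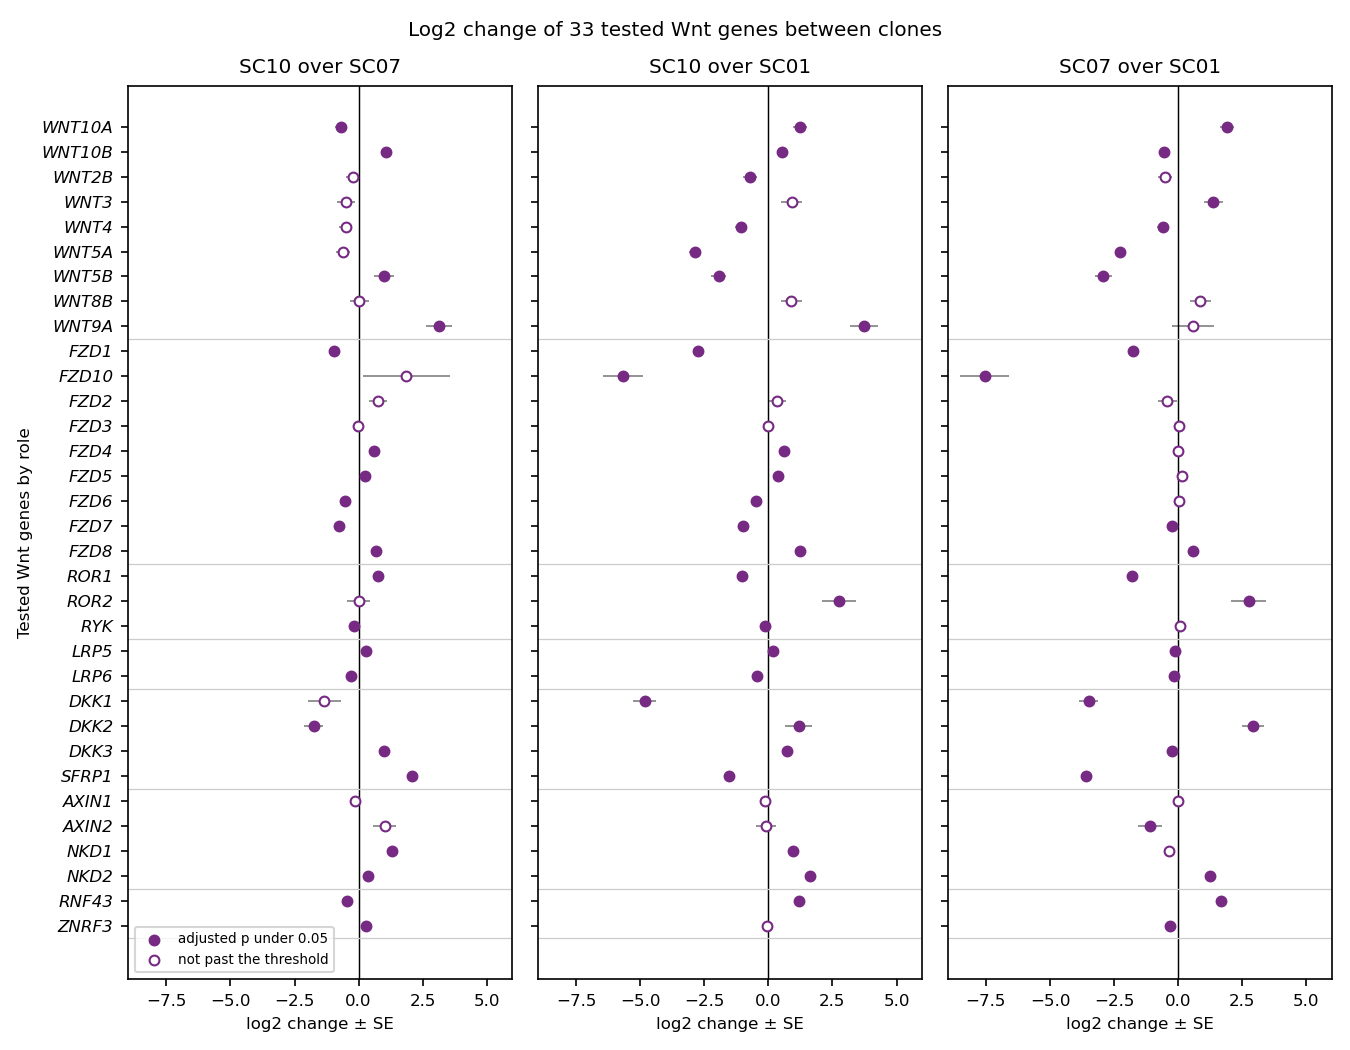
Log2 change (± SE) of each of the 33 tested WNT genes in SC10 against SC07, SC10 against SC01 and SC07 against SC01, grouped by role, with open symbols where the adjusted p is 0.05 or more. SFRP1, DKK1, WNT5A, FZD1 and ROR1 lie below 0 in both comparisons with SC01, and NKD2 and RNF43 above it; the fitted values of FZD10 rest on 1 count in SC10 and 0 in SC07 and are no estimate of size.

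The sequences before a RefSeq start of transcription are shown for 4 of these genes. DKK1, WNT5A and FZD1 were lower in both SC10 and SC07 than in SC01, and NKD2 was higher in both. 1 sequence is given for each gene. They are the 250 bases upstream of the RefSeq start on GRCh38.p14, written 5′ to 3′ along the gene, at chr10:52314031-52314280 (plus strand) for DKK1, chr3:55487307-55487556 (minus strand) for WNT5A, chr7:91264183-91264432 (plus strand) for FZD1 and chr5:1008552-1008801 (plus strand) for NKD2. The capitals mark CTTTGAA, a motif of the TCF and LEF factors.
DKK1: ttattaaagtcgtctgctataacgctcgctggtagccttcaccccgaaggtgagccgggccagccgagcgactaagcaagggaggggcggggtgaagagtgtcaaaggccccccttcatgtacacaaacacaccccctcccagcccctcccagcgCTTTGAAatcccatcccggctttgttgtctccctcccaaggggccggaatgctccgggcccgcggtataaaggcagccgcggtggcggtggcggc
WNT5A: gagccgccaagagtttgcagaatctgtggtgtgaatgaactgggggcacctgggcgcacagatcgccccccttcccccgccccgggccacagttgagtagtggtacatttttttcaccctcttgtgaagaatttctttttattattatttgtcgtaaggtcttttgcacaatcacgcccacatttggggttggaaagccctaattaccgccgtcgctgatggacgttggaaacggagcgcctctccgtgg
FZD1: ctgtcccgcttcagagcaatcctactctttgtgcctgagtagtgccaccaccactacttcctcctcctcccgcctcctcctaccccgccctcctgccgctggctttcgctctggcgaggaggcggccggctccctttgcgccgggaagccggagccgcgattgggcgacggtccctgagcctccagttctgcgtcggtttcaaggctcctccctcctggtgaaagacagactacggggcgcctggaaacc
NKD2: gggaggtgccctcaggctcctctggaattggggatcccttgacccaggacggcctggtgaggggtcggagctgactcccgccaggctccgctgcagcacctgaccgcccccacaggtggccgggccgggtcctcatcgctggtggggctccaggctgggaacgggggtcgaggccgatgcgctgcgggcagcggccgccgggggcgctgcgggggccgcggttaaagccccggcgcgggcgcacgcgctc
RefSeq windows of 300 bases around the start were matched for 32 of the 48 genes, using the first window listed for each. Searched on both strands, CTTTGAA or CTTTGAT stood in 1 of the 32, at position -95 of DKK1, against 2409 of 35116 windows of all genes (6.86%). The AP-1 motif TGANTCA stood in 0 of 32 and in 7.71% of all windows. CTTTGAT can share letters with TGANTCA where the motifs stand side by side. The E-box CACGTG stood in 0 of 32 and in 7.26% of all windows. A match is a description of the letters in the window only.

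Among the ligands, WNT10B was the most abundant transcript and WNT5A and WNT5B were the ones with the largest falls against SC01. WNT10B, a ligand of the β-catenin branch (chr12:48965340-48971763), had 32.2, 26.4 and 29.7 CPM in SC10, 14.2, 13.0 and 15.1 CPM in SC07, and 19.6, 21.0 and 20.9 CPM in SC01. No library of any clone overlapped with another clone's. WNT10B was higher in SC10 than in SC07 by 1.06 ± 0.08 log2 units (SE; edgeR adjusted p = 4.79e-12) and than in SC01 by 0.52 ± 0.07 (adjusted p = 5.81e-07), and was lower in SC07 than in SC01, at -0.54 ± 0.08 (adjusted p = 1.01e-06). Per kilobase of exon, it made up 87.1% of the summed ligand CPM in SC10, 75.0% in SC07 and 77.9% in SC01.

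WNT5A (chr3:55465715-55490539) had 0.763, 0.89 and 0.502 CPM in SC10, 0.639, 1.08 and 1.58 CPM in SC07, and 5.11, 5.25 and 5.57 CPM in SC01. Every SC01 library stood above every library of the other clones, while SC10 and SC07 overlapped. Its level fell by 2.88 ± 0.23 log2 units in SC10 against SC01 (adjusted p = 2.14e-11) and by 2.26 ± 0.21 in SC07 against SC01 (adjusted p = 6.81e-10); SC10 against SC07 gave -0.61 (adjusted p = 0.0686). That last comparison passed the threshold without SC07 replicate 1 (adjusted p = 0.00888) or without SC10 replicate 2 (adjusted p = 0.047).

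WNT5B, the close relative of WNT5A (chr12:1529891-1647243), had 0.49, 0.326 and 0.502 CPM in SC10, 0.152, 0.232 and 0.269 CPM in SC07, and 1.57, 1.61 and 1.89 CPM in SC01. SC01 again stood apart from both other clones, and SC10 from SC07. The log2 change was -1.93 ± 0.29 in SC10 against SC01 (adjusted p = 1.68e-06) and -2.93 ± 0.33 in SC07 against SC01 (adjusted p = 1.05e-08). SC10 was above SC07 by 0.9999 ± 0.39 log2 units (adjusted p = 0.0359), a call lost with DESeq2 (adjusted p = 0.0583), with limma-voom (0.0553), with no filter (0.0754) and with those 2 clones fitted alone (0.0626). It was also lost without SC07 replicate 1 (adjusted p = 0.12) or 2 (0.0601), or SC10 replicate 1 (0.0927) or 3 (0.0927).

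WNT4, known for its part in kidney and reproductive tract development (chr1:22117305-22143969), followed with 0.627, 1.01 and 1.06 CPM in SC10, 1.1, 1.16 and 1.55 CPM in SC07, and 1.81, 2.09 and 1.8 CPM in SC01. It was lower in SC10 than in SC01 by a log2 change of -1.08 ± 0.24 (adjusted p = 0.000285); in SC07 against SC01 it was -0.58 ± 0.23 (adjusted p = 0.0301), a call lost with DESeq2 (adjusted p = 0.0525), with no filter (0.0514) and without SC01 replicate 2 (adjusted p = 0.0941), SC07 replicate 1 (0.102) or SC07 replicate 2 (0.0977). WNT10A, a ligand of tooth and skin appendage development (chr2:218880363-218899581), went the other way, with 1.14, 1.51 and 1.06 CPM in SC10, 2.37, 1.93 and 1.7 CPM in SC07, and 0.632, 0.379 and 0.569 CPM in SC01. No libraries overlapped between clones. The log2 change of WNT10A was 1.22 ± 0.28 in SC10 against SC01 (adjusted p = 0.000349), 1.91 ± 0.26 in SC07 against SC01 (adjusted p = 3.66e-07) and -0.69 ± 0.23 in SC10 against SC07 (adjusted p = 0.0147); the last was lost without SC07 replicate 1 (adjusted p = 0.0945), SC10 replicate 1 (adjusted p = 0.0594) or SC10 replicate 3 (adjusted p = 0.0614).

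The remaining tested ligands were present at a mean of 1.69 CPM or less. WNT9A, a ligand of joint development, had 24, 26 and 23 counts in SC10, 3, 4 and 1 in SC07 and 1, 3 and 1 in SC01. It was higher in SC10 than in SC01 by 3.73 ± 0.56 log2 units (adjusted p = 1.5e-06) and than in SC07 by 3.15 ± 0.51 (adjusted p = 1.06e-05), at under 1 CPM in every library. Without SC01 replicate 2 the first of these was 4.45 (adjusted p = 5.59e-06). WNT9A reached the level needed for testing only through SC10, so it had to differ and its p-values lend no support. WNT3 was higher in SC07 than in SC01, with a log2 change of 1.38 ± 0.39 (adjusted p = 0.00312), although libraries of the clones overlapped. In SC10 against SC01 it was 0.90 (adjusted p = 0.0518), and it passed the threshold with the replicate block (log2 change 0.96, adjusted p = 0.0301), with those 2 clones fitted alone (0.0352), with no filter (0.0479) and without SC01 replicate 1 (0.0421) or SC07 replicate 2 (0.0257), as did its -0.47 in SC10 against SC07 (adjusted p = 0.284) without SC07 replicate 2 (0.0464). WNT2B averaged 1.03 ± 0.15 CPM in SC10, 1.19 ± 0.39 in SC07 and 1.69 ± 0.67 in SC01 (SD, n = 3), and 21.2% of its exon bases are shared with another gene. Its call in SC10 against SC01 (log2 change -0.73, adjusted p = 0.0228) was lost without SC01 replicate 1 (adjusted p = 0.303) or SC10 replicate 3 (adjusted p = 0.0701). In SC07 against SC01 it gave -0.51 (adjusted p = 0.105), which passed without SC01 replicate 2 (0.0295) or SC07 replicate 2 (0.0264). WNT8B averaged 0.711 ± 0.40, 0.697 ± 0.11 and 0.382 ± 0.16 CPM in SC10, SC07 and SC01 and passed the threshold in no pair with all libraries and TMM scaling. It passed in SC10 against SC01 without SC01 replicate 3 (adjusted p = 0.0354) or SC10 replicate 3 (0.00664), and in SC07 against SC01 without the same libraries (0.0424 and 0.0423) or with those 2 clones fitted alone (0.0409). Over the 9 tested ligands, 3 were higher and 4 lower in SC10 than in SC01, 2 higher and 4 lower in SC07 than in SC01, and 3 higher and 1 lower in SC10 than in SC07. WNT9A is among those higher in SC10. The calls were 77.8%, 66.7% and 44.4% of the tested ligands in that order of comparisons, beside 65.9%, 62% and 47.9% of all tested genes.

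Neighbouring WNT genes differed widely in their counts. Over all 9 libraries WNT10B had 6633 counts and WNT1, whose gene lies 6.69 kb away on chromosome 12, had 4. WNT10A had 393 and WNT6, 6.13 kb away on chromosome 2, had 8. WNT9A had 86 and WNT3A, 59.2 kb away on chromosome 1, had 9, and WNT3 had 206 where WNT9B, 46 bases away on chromosome 17, had 1. In each pair most counts thus came from the first gene. The other untested ligands were WNT16 with 30 counts in all, WNT11 with 20, WNT2 with 6, WNT7B with 4, and WNT7A and WNT8A with 2 each.

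**Figure D2:**
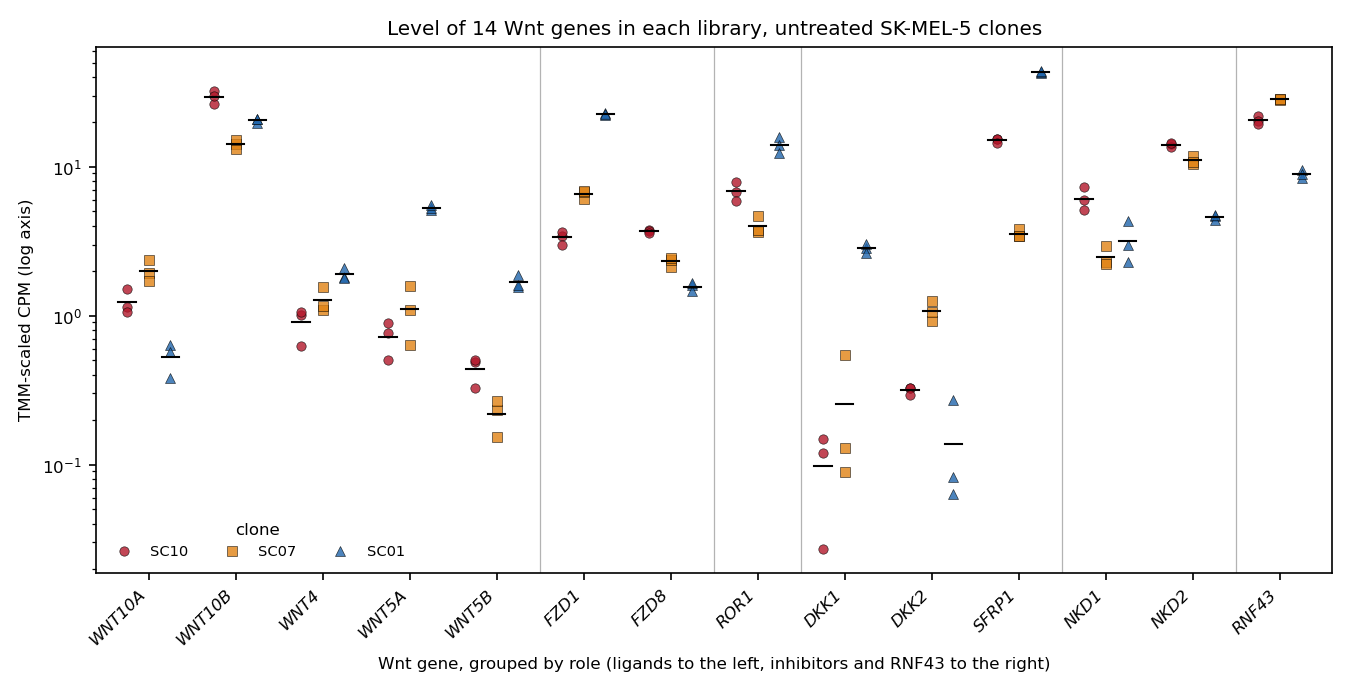
CPM on a log axis in each of the 9 libraries, with the clone mean as a bar, for the 14 WNT genes that in some pair of clones changed at least 2-fold at an adjusted p under 0.05 without overlap of libraries and with a mean of at least 1 CPM in the higher clone. SC01 stands above both other clones for FZD1 (22.1 to 22.8 CPM), WNT5A, WNT5B, ROR1, DKK1 and SFRP1 and below them for NKD2, RNF43 and WNT10A.

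Of the receptors, FZD1 changed most among those with more than 1 CPM and fell in both SC10 and SC07 against SC01. FZD1 (chr7:91264364-91271326) had 3.41, 3.65 and 2.98 CPM in SC10, 6.06, 6.73 and 6.9 CPM in SC07, and 22.1, 22.8 and 22.7 CPM in SC01. The clones did not overlap and stood in the order SC01, SC07, SC10 from high to low. The log2 change was -2.75 ± 0.10 in SC10 against SC01 (adjusted p = 1.3e-19), -1.78 ± 0.09 in SC07 against SC01 (adjusted p = 3.06e-16) and -0.97 ± 0.11 in SC10 against SC07 (adjusted p = 1.54e-08). FZD7 had the same order, at 6.89, 7.98 and 8.54 CPM in SC10, 13.6, 11.8 and 14.4 CPM in SC07, and 13.98, 16.3 and 16.2 CPM in SC01. It fell by 0.99 ± 0.10 log2 units in SC10 against SC01 (adjusted p = 8.13e-10) and by 0.77 in SC10 against SC07 (adjusted p = 2.59e-07). SC07 and SC01 overlapped for FZD7, and their log2 difference of -0.22 (adjusted p = 0.038) was lost with DESeq2 (adjusted p = 0.0579) and without SC01 replicate 2 (0.112), SC01 replicate 3 (0.12), SC07 replicate 1 (0.053) or SC07 replicate 2 (0.262).

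FZD8 had the reverse order of clones. FZD8 (chr10:35638249-35642278) had 3.76, 3.68 and 3.57 CPM in SC10, 2.13, 2.35 and 2.45 CPM in SC07, and 1.59, 1.45 and 1.65 CPM in SC01, with no overlap. The change of FZD8 on the log2 scale was 1.23 ± 0.16 in SC10 against SC01 (adjusted p = 1.83e-07), 0.67 ± 0.15 in SC10 against SC07 (adjusted p = 0.000693) and 0.56 ± 0.17 in SC07 against SC01 (adjusted p = 0.00577). FZD4, which also binds norrin, was highest in SC10, with 11.5, 11.01 and 10.7 CPM in SC10, 7.61, 7.66 and 6.48 CPM in SC07, and 7.88, 6.61 and 7.24 CPM in SC01. SC10 exceeded either clone by 0.61 on the log2 scale (adjusted p = 9.01e-06 against SC07 and 4.65e-06 against SC01), and SC07 against SC01 gave an adjusted p of 0.998. Part of its exon bases, 18.9%, is shared with another gene.

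FZD6, a receptor of tissue polarity, averaged 7.95 ± 0.83 CPM in SC10, 11.4 ± 0.43 in SC07 and 11.2 ± 1.8 in SC01 (SD, n = 3), and was lower in SC10 than in SC07 (log2 change -0.52, adjusted p = 0.000151) and than in SC01 (-0.49, adjusted p = 0.000171). FZD5 averaged 16.5 ± 1.3, 13.9 ± 0.45 and 12.7 ± 1.2 CPM in SC10, SC07 and SC01; it was higher in SC10 than in SC01 by a log2 change of 0.38 (adjusted p = 0.000231) and than in SC07 by 0.24 (adjusted p = 0.0157), the last lost without SC10 replicate 2 (adjusted p = 0.0764). FZD3, which guides axons, averaged 14.1 ± 1.5, 14.4 ± 1.2 and 14.2 ± 0.58 CPM in SC10, SC07 and SC01, and FZD2 0.76 ± 0.22, 0.449 ± 0.059 and 0.597 ± 0.21 CPM; neither passed the threshold, except FZD2 in SC10 against SC07 without SC10 replicate 3 (log2 change 0.77 and adjusted p = 0.0773 with all libraries, 0.0481 without).

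FZD10 (chr12:130162459-130165740) was counted almost only in SC01. It had 0.0272, 0 and 0 CPM in SC10, 0 in all SC07 libraries, and 0.604, 0.632 and 0.778 CPM in SC01, from 1 count in SC10, 0 in SC07 and 68 in SC01. With 3 counts over the clone as the floor, FZD10 was at least 23.5-fold lower in SC07 than in SC01. Set against SC10, SC01 had a count ratio of 69.9 (exact 95% interval 12.1 to 2800, counting error only). FZD10 reached the level needed for testing only through SC01, as WNT9A did only through SC10, so that these genes had to differ once tested. FZD9 was not tested, with 4 counts in all.

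Per kilobase, the make-up of the Frizzled RNA differed between the clones. FZD7 made up 18.9% of it in SC10, 28.4% in SC07 and 27.2% in SC01, FZD5 22.9%, 17.2% and 12.8%, and FZD6 18.2%, 23.2% and 18.6%. FZD1 made up 4.48% in SC10, 7.79% in SC07 and 21.9% in SC01. Over the 9 tested Frizzled genes, 3 were higher and 4 lower in SC10 than in SC01, 1 higher and 3 lower in SC07 than in SC01, and 3 higher and 3 lower in SC10 than in SC07. FZD10 is among those lower than in SC01. The calls were 77.8%, 44.4% and 66.7% of the tested Frizzled genes in that order, beside 65.9%, 62% and 47.9% of all tested genes.

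Among the receptor kinases, ROR1, a receptor of WNT5A, fell in both SC10 and SC07 against SC01. ROR1 (chr1:63774022-64181498) had 6.73, 7.89 and 5.91 CPM in SC10, 3.62, 4.64 and 3.76 CPM in SC07, and 15.8, 14.1 and 12.3 CPM in SC01, with no overlap between clones. The log2 change was -1.04 ± 0.11 in SC10 against SC01 (adjusted p = 9.67e-09), -1.81 ± 0.12 in SC07 against SC01 (adjusted p = 7.87e-13) and 0.76 ± 0.13 in SC10 against SC07 (adjusted p = 2.08e-05). ROR2, the other receptor of this kind, was rare and lowest in SC01, at 0.49, 0.208 and 0.354 CPM in SC10, 0.457, 0.309 and 0.299 CPM in SC07, and 0.0549, 0.0948 and 0 CPM in SC01. No SC01 library reached the level needed for testing, which ROR2 passed through SC10 and SC07. Its log2 change was 2.75 ± 0.67 in SC10 against SC01 (adjusted p = 0.000773) and 2.75 ± 0.67 in SC07 against SC01 (adjusted p = 0.000847), from 5 counts in SC01. Without SC01 replicate 2 they were 3.47 (adjusted p = 0.00102) and 3.46 (adjusted p = 0.00114). RYK, an atypical kinase that binds WNT, was among the most abundant, at 67.9 ± 2.1 CPM in SC10, 76.2 ± 1.4 in SC07 and 73.5 ± 2.1 in SC01 (SD, n = 3). RYK was lower in SC10 than in SC07 by a log2 change of -0.17 (adjusted p = 0.00411) and than in SC01 by -0.11 (adjusted p = 0.0351). The last was lost with no filter (0.107) and without SC01 replicate 1 (0.127) or 2 (0.0772), SC07 replicate 2 (0.0578), or SC10 replicate 1 (0.0836) or 2 (0.139).

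The co-receptors of the β-catenin branch changed by less than 0.5 log2 units in each comparison, in opposite directions in SC10 against either clone and both lower in SC07 than in SC01. LRP5 had 71.5, 68.4 and 64.4 CPM in SC10, 55.1, 53.2 and 57.8 CPM in SC07, and 57.2, 62.4 and 61.8 CPM in SC01. LRP6 had 53.0, 53.9 and 44.0 CPM in SC10, 59.9, 64.7 and 60.2 CPM in SC07, and 74.1, 66.8 and 67.3 CPM in SC01. SC10 was the highest clone for LRP5 and the lowest for LRP6. In SC10 against SC01 the log2 change was 0.17 for LRP5 (adjusted p = 0.0056, but 0.296 with scaling by library totals and 0.0509 without SC01 replicate 1) and -0.46 for LRP6 (adjusted p = 1.59e-06). In SC10 against SC07 it was 0.30 for LRP5 (adjusted p = 3.06e-05) and -0.29 for LRP6 (adjusted p = 0.000764). In SC07 against SC01 both were lower, LRP5 at -0.13 (adjusted p = 0.0397) and LRP6 at -0.17 (adjusted p = 0.0244). The call of LRP5 was lost with DESeq2 (0.0558), with no filter (0.0883) and without SC01 replicate 2 (0.122) or 3 (0.102) or SC07 replicate 1 (0.0809) or 2 (0.208), and that of LRP6 without SC01 replicate 1 (0.132) or SC07 replicate 1 (0.0953) or 3 (0.107).

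The secreted antagonists showed the widest differences between the clones, with SFRP1 and DKK1 highest in SC01, DKK2 highest in SC07 and DKK3 highest in SC10. SFRP1, which binds WNT proteins outside the cell, had 15.3, 15.4 and 14.4 CPM in SC10, 3.41, 3.81 and 3.4 CPM in SC07, and 42.5, 42.9 and 43.9 CPM in SC01. The libraries of each clone lay close together and far from those of the others. SFRP1 fell by 3.60 ± 0.08 log2 units in SC07 against SC01 (adjusted p = 3.3e-24), which is 12.1-fold, and by 1.52 ± 0.07 in SC10 against SC01 (adjusted p = 1.44e-17). It was higher in SC10 than in SC07 by 2.08 ± 0.08 (adjusted p = 1.63e-17).

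DKK1, which blocks LRP5 and LRP6 and is itself a β-catenin target (chr10:52314296-52318042), had 0.0272, 0.119 and 0.148 CPM in SC10, 0.548, 0.129 and 0.0896 CPM in SC07, and 2.83, 3.0 and 2.63 CPM in SC01. These are 1, 4 and 5 counts in SC10, 18, 5 and 3 in SC07, and 103, 95 and 88 in SC01. SC01 stood above every other library, and SC07 replicate 1 above its fellows. Outside SC01 only SC07 replicate 1 reached the level needed for testing. DKK1 was thus tested through SC01, and its p-values against SC01 lend no support. The log2 change was -4.82 ± 0.44 in SC10 against SC01 (adjusted p = 1.48e-09) and -3.48 ± 0.37 in SC07 against SC01 (adjusted p = 2.36e-08). Without SC07 replicate 1 the log2 change in SC07 against SC01 was -4.63 (adjusted p = 3.68e-10). Between SC10 and SC07 it was -1.34 ± 0.64 (adjusted p = 0.0934), and -0.19 (adjusted p = 0.849) without SC07 replicate 1. It passed the threshold without SC07 replicate 2 (adjusted p = 0.0465) or replicate 3 (adjusted p = 0.0293). Exon bases shared with an antisense gene made up 9.61% of DKK1.

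DKK2, a relative of DKK1 (chr4:106921802-107283806), had 0.327, 0.326 and 0.295 CPM in SC10, 0.913, 1.06 and 1.25 CPM in SC07, and 0.0824, 0.0632 and 0.269 CPM in SC01. It was higher in SC07 than in SC01 by 2.93 ± 0.43 log2 units (adjusted p = 1.07e-06) and lower in SC10 than in SC07, at -1.75 ± 0.37 (adjusted p = 0.000262). SC10 against SC01 gave 1.18 ± 0.51 (adjusted p = 0.0447), lost with DESeq2 (adjusted p = 0.059), library totals (0.0672), no filter (0.0658) and on leaving out any library other than SC01 replicate 3 (adjusted p = 0.0521 to 0.174). Without SC01 replicate 3 the log2 change of DKK2 was 2.05 in SC10 against SC01 (adjusted p = 0.0056) and 3.80 in SC07 against SC01 (adjusted p = 9.77e-07). DKK3, a divergent member of the family, had 16.0, 16.9 and 17.2 CPM in SC10, 8.71, 7.94 and 8.84 CPM in SC07, and 10.3, 9.7 and 10.4 CPM in SC01. It was higher in SC10 than in SC07 by 0.98 ± 0.08 log2 units (adjusted p = 1.22e-10) and than in SC01 by 0.72 ± 0.08 (adjusted p = 1.03e-08); SC07 against SC01 gave -0.26 (adjusted p = 0.0117), lost without SC07 replicate 2 (adjusted p = 0.0764). SFRP5 with 26 counts, SFRP4 with 12, DKK4 with 1 and SFRP2 with 0 counts in all libraries were not tested. The standard errors of genes with a few counts in a clone, DKK1, DKK2, WNT5B, WNT9A and ROR2 among them, understate their error.

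Summed over the family, antagonist CPM was 32.2 ± 0.51 in SC10, 13.5 ± 0.30 in SC07 and 56.4 ± 0.83 in SC01 (SD, n = 3). Ligand CPM summed to 36.2 ± 2.2, 21.8 ± 1.2 and 32.7 ± 0.66 in SC10, SC07 and SC01, and Frizzled CPM to 65.2 ± 3.9, 69.7 ± 0.61 and 86.1 ± 1.2. SC07 thus had the lowest sum of both ligands and antagonists. Per kilobase, SFRP1 made up 47.9% of the antagonist RNA in SC10, 26.2% in SC07 and 72.7% in SC01, and DKK3 49.9%, 59.0% and 16.1%. The sums are descriptions, with no test, since most of each rests on 1 or a few genes.

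**Figure D3:**
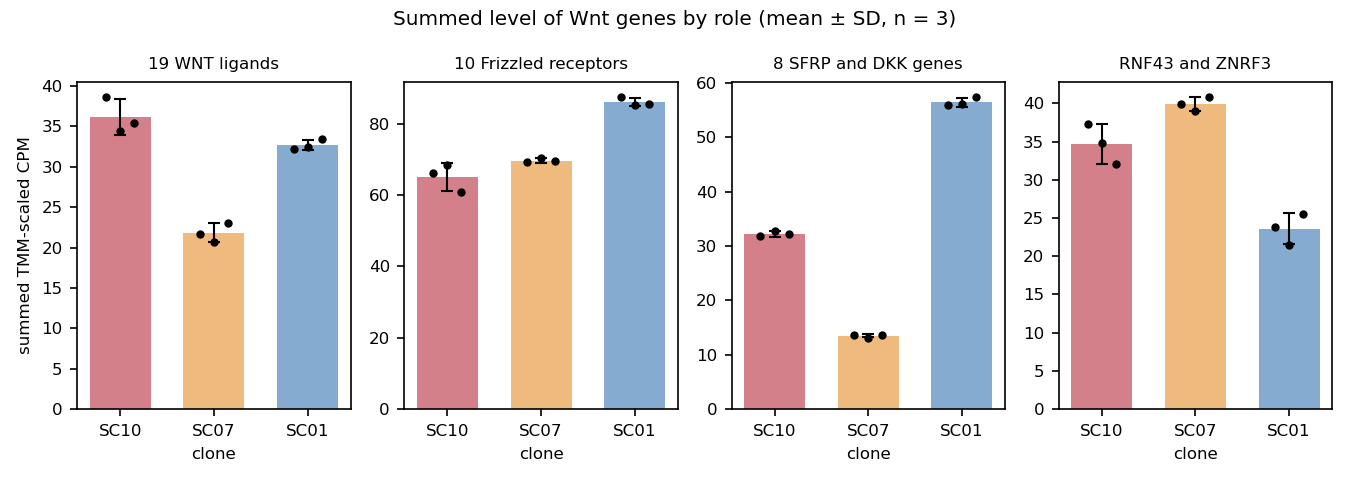
Summed CPM of the WNT ligands, the Frizzled receptors, the secreted antagonists, and RNF43 with ZNRF3 in the 9 libraries, by clone, with the clone mean as a bar. Antagonists average 32.2 CPM in SC10, 13.5 in SC07 and 56.4 in SC01. That range is wider than that of the LRP co-receptors, which are not plotted (118 CPM in SC10, 117 in SC07, 130 in SC01).

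The intracellular inhibitor NKD2 and the receptor-removing ligase RNF43 were higher in both SC10 and SC07 than in SC01. The values of RNF43 are uncertain, as 73.9% of its exon bases are shared with other genes. NKD2, which binds Dishevelled and holds back the signal (chr5:1008829-1038943), had 14.2, 13.5 and 14.4 CPM in SC10, 11.8, 10.5 and 10.8 CPM in SC07, and 4.64, 4.39 and 4.76 CPM in SC01. NKD2 changed by 1.61 ± 0.09 log2 units in SC10 against SC01 (adjusted p = 1.3e-14), 1.26 ± 0.10 in SC07 against SC01 (adjusted p = 4.09e-12) and 0.35 ± 0.08 in SC10 against SC07 (adjusted p = 0.00119). NKD1, its relative (chr16:50548330-50649249), was highest in SC10, at 7.25, 5.96 and 5.11 CPM in SC10, 2.92, 2.29 and 2.21 CPM in SC07, and 2.99, 4.3 and 2.28 CPM in SC01. It gave 1.31 ± 0.19 in SC10 against SC07 (adjusted p = 1.03e-05), 0.94 ± 0.19 in SC10 against SC01 (adjusted p = 0.000161) and -0.36 in SC07 against SC01 (adjusted p = 0.133, and 0.016 without SC01 replicate 3).

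AXIN1, a scaffold of the complex that degrades β-catenin, averaged 39.5 ± 2.0 CPM in SC10, 43.2 ± 0.94 in SC07 and 43.1 ± 3.0 in SC01 and passed the threshold in no comparison of that fit. SC10 against SC01 gave a log2 change of -0.12 (adjusted p = 0.0596), past the threshold with library totals (0.000687), with a filter of 1 CPM (0.0401) and without SC01 replicate 1 (0.0129) or SC10 replicate 1 (0.0375). SC10 against SC07 gave -0.13 (adjusted p = 0.0623), past it with library totals (0.0498) and without SC10 replicate 1 (0.0475). AXIN2, its relative and a widely used β-catenin target, was rare in every clone. It had 0.409, 0.267 and 0.65 CPM in SC10, 0.122, 0.309 and 0.209 CPM in SC07, and 0.549, 0.411 and 0.449 CPM in SC01, and 25.2% of its exon bases are shared with another gene. SC07 was below SC01 by a log2 change of -1.11 ± 0.45 (adjusted p = 0.037), lost with DESeq2 (adjusted p = 0.0663), with no filter (0.0623) and without SC01 replicate 1 (0.121) or 3 (0.0634) or SC07 replicate 1 (0.149) or 3 (0.0828). SC10 against SC01 gave -0.09 (adjusted p = 0.852), and SC10 against SC07 1.01 (adjusted p = 0.0713), which passed without SC07 replicate 2 (0.0451) or SC10 replicate 2 (0.0355).

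RNF43 and ZNRF3 are ubiquitin ligases that remove Frizzled receptors from the cell surface. RNF43 (chr17:58352500-58417595) had 21.8, 20.4 and 19.2 CPM in SC10, 28.5, 28.0 and 28.3 CPM in SC07, and 9.53, 8.37 and 8.98 CPM in SC01, with no overlap. Its log2 change was 1.19 ± 0.08 in SC10 against SC01 (adjusted p = 9.32e-14), 1.65 ± 0.07 in SC07 against SC01 (adjusted p = 4.07e-17) and -0.47 ± 0.07 in SC10 against SC07 (adjusted p = 2.14e-06). Other genes share 73.9% of the exon bases of RNF43, among them SUPT4H1 and the antisense TSPOAP1-AS1, and how reads in shared bases were counted is not given in the sources used here, so its values are uncertain. ZNRF3 had 15.5, 14.4 and 12.9 CPM in SC10, 11.4, 10.98 and 12.5 CPM in SC07, and 14.3, 13.1 and 16.5 CPM in SC01. It was lower in SC07 than in SC01 (log2 change -0.33, adjusted p = 0.00256) and higher in SC10 than in SC07 (0.30, adjusted p = 0.00901, lost without SC07 replicate 2 or SC10 replicate 1, at 0.0538 and 0.0607), with -0.04 in SC10 against SC01 (adjusted p = 0.738).

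Levels of different genes are set side by side here per kilobase of all annotated exon bases, as are the family shares above. That length can exceed the transcript expressed, so comparisons between genes are rough. WNT10B had 11.2 CPM per kb in SC10, 5.38 in SC07 and 7.80 in SC01, LRP5 11.05, 8.98 and 9.81, and RYK 8.44, 9.47 and 9.13. SFRP1 reached 9.06 CPM per kb in SC01, against 3.16 in SC10 and 0.744 in SC07. AXIN1 had 5.27, 5.77 and 5.75 CPM per kb, and LRP6 4.87, 5.96 and 6.71, in SC10, SC07 and SC01.

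Other genes of the pathway were read from lists of 85 genes, of which 69 were tested. In SC10 against SC01, 17 were higher and 34 lower, in SC07 against SC01, 21 higher and 35 lower, and in SC10 against SC07, 28 higher and 19 lower. That is 73.9%, 81.2% and 68.1% of those tested, beside the shares of all genes above. TCF7, LEF1, LGR5, APCDD1 and NOTUM stand in a pair of the lists and count once here. NOTUM, an enzyme that inactivates WNT by removing its lipid, had 17.3, 17.0 and 16.9 CPM in SC10, 11.8, 12.3 and 13.2 CPM in SC07, and 2.64, 2.91 and 1.98 CPM in SC01. NOTUM was higher by 2.77 ± 0.11 log2 units in SC10 against SC01 (adjusted p = 2.23e-18) and 2.31 ± 0.11 in SC07 against SC01 (adjusted p = 2.11e-16). WLS, which carries WNT to the surface, averaged 99.1 ± 2.9 CPM in SC10, 72.6 ± 1.9 in SC07 and 90.4 ± 1.3 in SC01 (SD, n = 3), and PORCN, which attaches the lipid, 19.1 ± 0.55, 18.7 ± 1.4 and 22.4 ± 1.2 CPM.

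RSPO4, an R-spondin that shields Frizzled receptors from RNF43 and ZNRF3, averaged 10.8 ± 0.86 CPM in SC10, 2.72 ± 0.50 in SC07 and 1.73 ± 0.40 in SC01, a log2 change of 2.65 ± 0.15 in SC10 against SC01 (adjusted p = 8.6e-15). LGR4, its receptor, passed the threshold in no pair, and the other R-spondins and LGR genes were not tested. Among 13 other secreted or membrane modulators, 7 were tested, with 1 higher and 5 lower in SC10 than in SC01 and 3 higher and 3 lower in SC07 than in SC01. That is 85.7% of those tested in each comparison, beside 65.9% and 62% of all tested genes. The glypican GPC3 averaged 0.548 ± 0.091 CPM in SC10, 0.606 ± 0.12 in SC07 and 13.4 ± 0.97 in SC01, and PTK7, a co-receptor of the polarity branch, 9.33 ± 0.67, 7.24 ± 0.39 and 23.4 ± 0.71 CPM. In SC10 and SC07 against SC01 the log2 changes were -4.61 and -4.47 for GPC3 (adjusted p = 1.44e-19 and 1.81e-19) and -1.33 and -1.69 for PTK7 (adjusted p = 2.79e-14 and 2.45e-16). GPC4 was higher in both, at 0.65 and 0.58 (adjusted p = 1.79e-12 and 2.41e-11). CTHRC1 was lower in SC10 and higher in SC07, at -0.83 and 1.27 (adjusted p = 5.17e-05 and 4.34e-09).

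All 13 genes of the β-catenin degradation list were tested, with 4 higher and 6 lower in SC10 than in SC01 and 6 higher and 3 lower in SC07 than in SC01. These are 76.9% and 69.2% of the list, beside 65.9% and 62% of all tested genes. APC, a scaffold of that complex, averaged 129 ± 17 CPM in SC10, 93.0 ± 3.9 in SC07 and 55.9 ± 3.0 in SC01. CSNK1E went the other way, with log2 changes of -0.67 in SC10 and -0.85 in SC07 against SC01 (adjusted p = 1.7e-13 and 9.69e-16). Other genes share 21.1% of its exon bases. CTNNB1, the gene of β-catenin, gave log2 changes of 0.54 ± 0.04 in SC10 against SC01 (adjusted p = 2.54e-12) and 0.72 ± 0.04 in SC07 against SC01 (adjusted p = 4.61e-15). Of the 14 nuclear factors, 2 were higher and 8 lower in SC10 than in SC01, and 1 higher and 11 lower in SC07 than in SC01. That is 71.4% and 85.7% of those tested, beside 65.9% (32.4% lower) and 62% (30.5% lower) of all tested genes. TCF7L1, mostly a repressor of the targets, averaged 7.72 ± 0.47, 5.42 ± 0.95 and 18.2 ± 0.31 CPM in SC10, SC07 and SC01, and the co-repressor TLE4 1.15 ± 0.14, 3.61 ± 0.19 and 5.13 ± 0.58 CPM. The co-repressor TLE2 was highest in SC10, at 11.2 ± 0.21, 3.75 ± 0.37 and 4.81 ± 0.32 CPM, with log2 changes of 1.23 in SC10 and -0.36 in SC07 against SC01 (adjusted p = 6.37e-11 and 0.00942). TCF7, which can activate the targets, averaged 7.29 ± 0.87, 7.23 ± 0.78 and 4.71 ± 0.35 CPM.

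Of the 20 polarity and calcium genes, 17 were tested, with 3 higher and 6 lower in SC10 than in SC01 and 4 higher and 8 lower in SC07 than in SC01. These are 52.9% and 70.6% of those tested, beside 65.9% and 62% of all tested genes. NFATC2, a calcium-regulated transcription factor, averaged 14.8 ± 1.8 CPM in SC10, 8.86 ± 0.81 in SC07 and 145 ± 4.0 in SC01, with log2 changes of -3.29 and -4.03 against SC01 (adjusted p = 2.81e-23 and 1.3e-24). DAAM2, CELSR3 and PRICKLE1 were also lower in both than in SC01; 30.1% of the exon bases of DAAM2 and 23.6% of those of PRICKLE1 are shared with other genes. Of 20 general β-catenin target genes 16 were tested, with 6 higher and 8 lower in SC10 than in SC01 and 7 higher and 9 lower in SC07 than in SC01. That is 87.5% and 100% of those tested, beside 65.9% and 62% of all tested genes. The targets lower in both were led by JUN, at 4.21 ± 0.76 CPM in SC10, 4.71 ± 0.73 in SC07 and 34.1 ± 0.93 in SC01, an AP-1 factor. CD44, an adhesion receptor, averaged 328 ± 5.3, 264 ± 6.6 and 771 ± 14 CPM in SC10, SC07 and SC01, whereas BAMBI, a decoy receptor of TGF-β, averaged 97.9 ± 1.7, 65.1 ± 3.8 and 53.9 ± 1.2 CPM. The targets thus moved in both directions in each comparison with SC01.

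**Figure D4:**
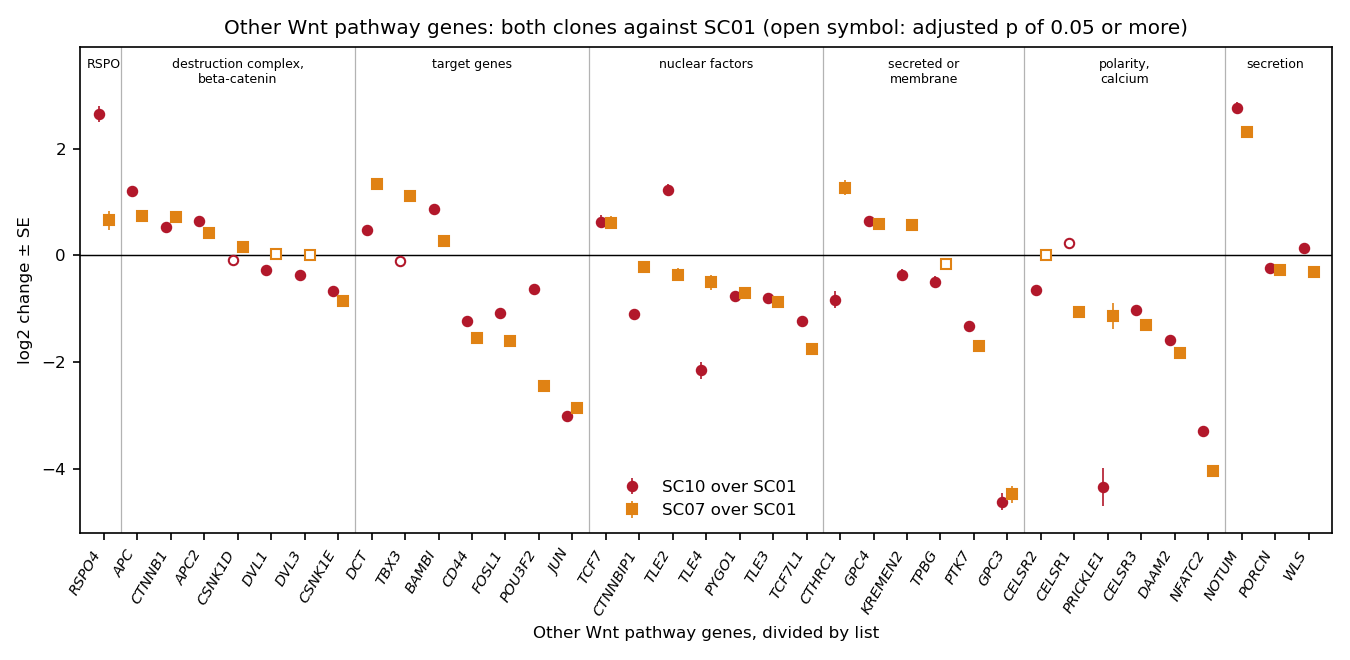
Log2 change (± SE) in SC10 and SC07 against SC01 of the other WNT pathway genes named by rule, divided by list, with open symbols where the adjusted p is 0.05 or more. NOTUM (2.77 and 2.31) lies far above 0 in both, RSPO4 (2.65) in SC10, and GPC3, NFATC2 and JUN lie far below 0 in both.

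To show the changes beside those at the same place in the genome, each of the 14 genes in the plot of CPM by library was set beside its 20 nearest tested genes. In SC07 against SC01 the neighbours of FZD1 had a median log2 change of -0.21, where FZD1 had -1.78, and those of SFRP1 -0.19, where SFRP1 had -3.60. The neighbours of WNT5A had 0.09, those of ROR1 0.11 and those of DKK1 -0.07. In SC10 against SC01 the medians were -0.22 around FZD1, -0.08 around WNT5A, 0.42 around DKK1 and -0.54 around WNT5B. Around NKD2, which was higher in both clones, they were 0.39 in SC10 and 0.28 in SC07. In SC10 against SC07 the neighbours of SFRP1 had a median of 0.69, the same sign as the gene's own 2.08. Each of the genes named here changed more than the median of its neighbours in these comparisons; no test was made of the difference, and single neighbours changed as much or more in several of them.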

How the data were processed

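RNA of 9 libraries, 3 for each clone, was used. The authors deposited raw counts of 60675 Ensembl genes per library; HISAT2, featureCounts and GRCh38 were used, per the submitters' processing notes. Not given in the sources used here are the versions, annotation release, strand setting and handling of multi-mapped reads. Nor is the handling of reads that overlap several genes, which together with the strand setting bears on overlapping genes. Names, positions and exon overlaps came from GENCODE 29, which held 57055 of the IDs, and upstream sequences from RefSeq (GRCh38.p14). Libraries were grouped by label.

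Genes passing edgeR's filterByExpr (minimum count 10, here 0.289 CPM in 3 libraries), 18009 in all, were scaled by TMM and fitted over the 9 libraries by robust quasi-likelihood (edgeR 4.0.16, R 4.3.3), with Benjamini-Hochberg adjustment over all of them and a threshold of 0.05. Adjusted p-values without a named tool are edgeR's. Standard errors come from the log2 change and its F statistic. The procedure was run on simulated data, with changes planted only in well-counted genes under a fixed spread. That run does not cover genes with few counts. The rule for library values was a called, at least 2-fold change without overlap of libraries and a mean of at least 1 CPM in the higher clone; other genes got library values or clone means. From each pathway list, named genes came from the 4 called genes of largest change per comparison, and LGR4 was added for its role. The genes and lists were chosen with earlier results of these data known. Intervals and floors cover counting error only. Alternatives were DESeq2 1.42.0, limma 3.58.1, other scalings and filters, a test against a 1.5-fold change, fits of each pair, a replicate block and leaving out each library.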

Additional observations from a re-analysis of the deposited data

How the results depend on the processing

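Over the alternatives run, 203 counts of called genes stayed within 1.5 times the reported one and 8 did not. Of the log2 changes of the 14 genes plotted by library, 708 kept their side of the threshold, 38 lost the call and 5 gained one, and no called one changed sign. Tested against a 1.5-fold change, 13 WNT genes passed in SC07 against SC01 (7 lower), 16 in SC10 against SC01 (7 higher) and 7 in SC10 against SC07 (5 higher, 2 lower), fewer because that test asks for a larger change. Shares of all tested genes under this and the other alternatives below are not set beside the counts. The counts of this section are thus a description only. With a filter of 1 CPM in 3 libraries, 4 WNT genes were higher in SC07 than in SC01, as genes below 1 CPM were not tested. Without 1 library, SC07 against SC01 gave 17 to 23 WNT genes (7 to 8 higher, 10 to 15 lower), SC10 against SC01 24 to 27 (12 to 14 higher, 12 to 13 lower), SC10 against SC07 19 to 22 (11 to 13 higher, 7 to 10 lower) and the 3 clones together 27 to 29; other pathway genes gave 52 to 58, 49 to 55 and 41 to 48. With library totals, 22, 25 and 22 WNT genes were called. Deviations of libraries with the same replicate number had correlations of -0.0195 to 0.0429, and those with unlike numbers -0.0406 to 0.0219. Values this small do not show whether the numbers pair the libraries, and the labels do not say. The replicate block gave 22, 27 and 21 WNT genes and 28 among the 3 clones. Depth limits the genes under 1 CPM, where 3 counts are 0.0773 to 0.0948 CPM.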
